A study of Mus musculus with 6 samples.

Results

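Expression of 10 genes of the interleukin 1 (IL-1) and IL-18 families and of the inflammasome was examined in MCA205 tumors. The genes were chosen by name, as ligands (*Il1a*, *Il1b*, *Il18* and *Il33*), antagonists (*Il1rn* and *Il18bp*), receptors (*Il1r1* and *Il1r2*) and inflammasome components (*Nlrp3* and *Casp1*), and all 10 were found among the 54309 gene identifiers of the deposited table. MCA205 is a transplantable mouse fibrosarcoma line, and 1000000 cells were placed under the skin of the flank of female C57BL/6J mice aged 7 weeks. The 3 control tumors came from mice that drank MilliQ water and the 3 FF-10101–treated tumors from mice that drank 0.1 mg/mL FF-10101, a covalent inhibitor of the receptor kinases FLT3 and CSF1R, from day 1 until the tumors were taken on day 8. Whole tumors were sequenced, so a value sums over tumor cells, host leukocytes, vessels and stroma, and fewer cells of a type cannot be told apart from less RNA per cell.

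IL-1α and IL-1β signal through the receptor IL-1R1, which pairs with an accessory chain and the adaptor MyD88 to activate NF-κB. IL-1β and IL-18 are made as precursors that caspase-1 cuts, and caspase-1 is itself activated on inflammasomes such as the one built on NLRP3, so transcript levels do not give the amount of active cytokine. The IL-1 receptor antagonist (*Il1rn*), the decoy receptor IL-1R2 and the IL-18 binding protein restrain these cytokines, and macrophages and neutrophils are major sources of IL-1β in tumors.

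The question was whether treatment with FF-10101 was accompanied by a different expression of these genes. On the fitted log2 scale every one of the 10 genes was higher on average in the FF-10101–treated tumors, but 0 passed an adjusted p of 0.05 (limma with Benjamini-Hochberg adjustment over all 13963 genes tested, of which 0.043% passed). An unadjusted p under 0.05 was reached by 3 of the 10, *Il1rn*, *Il1a* and *Il1b*, against 16.3% of all genes tested, 8.77% in the direction of a higher level in the treated tumors and 7.49% in the opposite one. In 4 genes, *Il1b*, *Il1a*, *Il1rn* and *Il1r1*, each treated tumor was above each control tumor, a pattern found in 10.9% of all genes. The opposite pattern was found in none of the 10 and in 9.37% of all genes. The median log2 fold change of the 10 was 0.98, and that of all genes tested was 0.020, with 51.9% of all genes above 0.

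The 6 tumors had between 9143806 and 13258258 recovered reads, and 3 reads, the limit that a count of 0 allows, equal 2.29 to 3.38 normalized counts across tumors (counting error only). Transcripts of fibroblasts and fibrosarcoma (9 of 9 listed genes, among them *Col1a1*, *Pdgfra* and *Vim*) and of macrophages (9 of 9) were read in the tumors. Control tumor 1 stood apart from the other control tumors. Its summed normalized counts were 1834 for 6 T cell markers, against 715 and 590 in control tumors 2 and 3 and 774 to 1728 in the treated tumors. They were 1435 for 4 NK cell markers, against 467 and 399 in the other controls and 847 to 1652 in the treated tumors, and 4315 for 5 endothelial markers, against 1733 and 1235 and 4294 to 5034. Without it, 5 of the 10 genes (*Il1b*, *Il1rn*, *Il1r2*, *Il18bp* and *Casp1*) passed an adjusted p of 0.05 in limma, all higher in the treated tumors, and so did 21.9% of all genes tested, 12% as higher and 9.88% as lower.

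**Figure D1:**
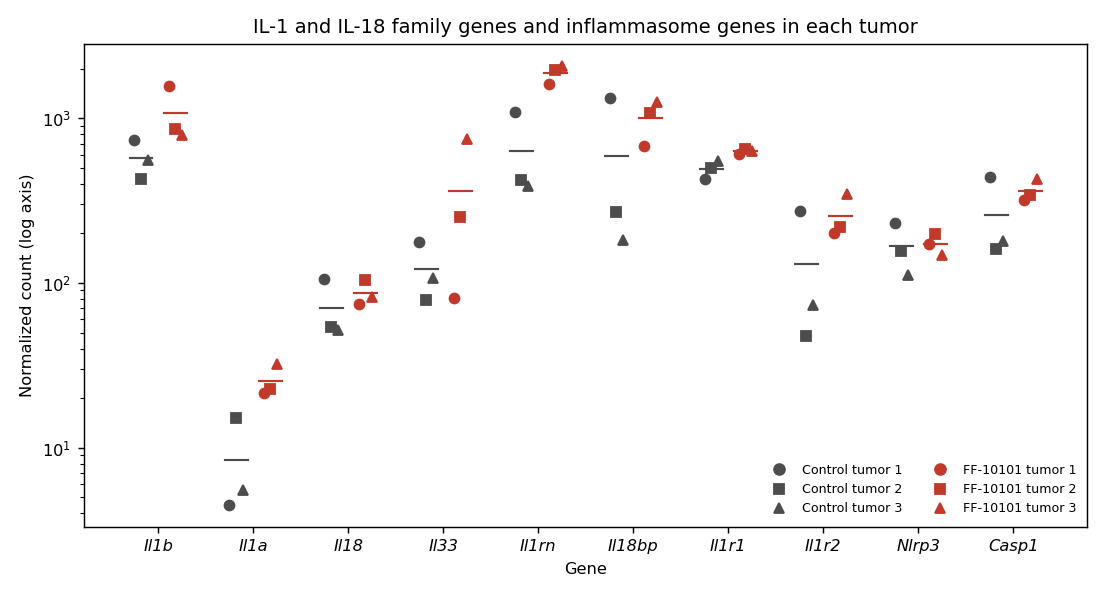
Normalized count (log axis) of the 10 genes in each of the 3 control tumors (gray) and 3 FF-10101–treated tumors (red), with the group mean as a line. The groups are separate for *Il1b*, *Il1a*, *Il1rn* and *Il1r1*, while control tumor 1 lies within or above the treated tumors for *Il18*, *Il18bp*, *Il1r2*, *Nlrp3* and *Casp1*.

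The regions around the transcription starts of *Il1b*, *Il1a* and *Il1rn* are shown because these are the ligand and antagonist genes whose groups did not overlap. All of them lie on chromosome 2. Each stretch runs from 250 bases before to 50 bases after a start in RefSeq (GRCm38.p6; *Il1b*, chr2:129371090-129371389, minus strand; *Il1a*, chr2:129309923-129310222, minus strand; *Il1rn*, the first of 3 listed starts, chr2:24336610-24336909, plus strand), read 5′ to 3′ on the strand of the gene. Capitals mark matches on either strand to the motifs searched, which were TATAAA for the promoter box that binds the TATA-binding protein, TGANTCA for AP-1, GAGGAA for PU.1, TTCNNNGAA for GAS and the NF-κB motif:
Il1b: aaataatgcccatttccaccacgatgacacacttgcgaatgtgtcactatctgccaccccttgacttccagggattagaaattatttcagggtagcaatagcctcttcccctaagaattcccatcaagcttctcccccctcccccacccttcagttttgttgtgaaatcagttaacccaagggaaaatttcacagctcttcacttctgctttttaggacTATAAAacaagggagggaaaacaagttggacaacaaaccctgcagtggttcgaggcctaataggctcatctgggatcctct
Il1a: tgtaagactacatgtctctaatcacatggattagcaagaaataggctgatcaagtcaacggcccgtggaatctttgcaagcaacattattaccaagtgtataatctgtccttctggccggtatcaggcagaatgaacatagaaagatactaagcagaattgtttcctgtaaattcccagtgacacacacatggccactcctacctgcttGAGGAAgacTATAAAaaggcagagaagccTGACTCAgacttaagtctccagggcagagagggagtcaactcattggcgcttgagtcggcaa
Il1rn: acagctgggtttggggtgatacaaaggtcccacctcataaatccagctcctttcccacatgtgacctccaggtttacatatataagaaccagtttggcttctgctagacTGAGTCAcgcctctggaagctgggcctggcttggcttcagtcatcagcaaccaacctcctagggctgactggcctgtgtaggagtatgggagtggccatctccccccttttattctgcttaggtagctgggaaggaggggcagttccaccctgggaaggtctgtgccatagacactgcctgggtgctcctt

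A TATA box was found 31 bases before the start of *Il1b* and 32 bases before that of *Il1a*, and 13.6% of the 32851 promoters of the same length hold those letters somewhere. The *Il1a* stretch also held an AP-1 match 12 bases and a PU.1 match 41 bases before the start, and that of *Il1rn* an AP-1 match 141 bases before it. AP-1 matches are in 7.81%, PU.1 matches in 28.3%, GAS matches in 8.30% and NF-κB matches in 8.46% of all promoters. Every match in the other start regions was as follows. NF-κB matches lay 232 bases before the second start of *Il1r1* and 186 bases before the first start of *Nlrp3*, and a GAS match lay 111 bases before the start of *Il1r2*. PU.1 matches lay 220, 129 and 36 bases before the second start of *Nlrp3*, 108 bases before the start of *Casp1*, and 4 bases before and 2 bases after the first start of *Il33*. TATA box letters lay 203 bases before the first and 29 bases before the second start of *Il33*, 175 bases before the start of *Il18* and 14 bases after the third start of *Il1rn*. The *Il18bp* stretch held no match to any of these motifs. The matches were found by letters alone, and binding was not measured.

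Among the ligands, *Il1b* (ENSMUSG00000027398), encoding IL-1β, had normalized counts of 742, 429 and 556 in control tumors 1, 2 and 3 and of 1570, 857 and 788 in FF-10101 tumors 1, 2 and 3. The groups did not overlap, and FF-10101 tumor 1 was far above the other treated tumors. The group means were 576 ± 157 and 1072 ± 433 (SD, n = 3 each), a 1.86-fold difference of means and a log2 fold change of 0.86 (SE, the standard error, 0.30; limma adjusted p = 0.254). It was 0.55 without FF-10101 tumor 1.

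*Il1a* (ENSMUSG00000027399), encoding the alarmin IL-1α, lies beside *Il1b* and was far less abundant. It had 4, 14 and 5 reads in the control tumors and 28, 21 and 36 reads in the treated tumors, or 4.503, 15.2 and 5.55 against 21.4, 22.8 and 32.0 normalized counts. Control tumor 2 was the highest control and remained below every treated tumor. The log2 fold change was 1.64 (SE 0.55, limma adjusted p = 0.245). As the counts are low, it depended on the scale, and was 0.98 with a pseudocount of 10 in place of 1 and 0.64 on the deposited log2 values.

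*Il18* (ENSMUSG00000039217), encoding the inducer of interferon-γ in T and NK cells, had normalized counts of 106, 54.3 and 52.1 in the control tumors and 74.1, 104 and 82.7 in the treated tumors. Control tumor 1 was above every treated tumor, and the other controls were below them all. The log2 fold change was 0.36 (SE 0.33, limma adjusted p = 0.609), and leaving out single tumors gave 0.18 (without control tumor 3) to 0.68 (without control tumor 1), none of which passed the threshold. Leaving out tumor 2 of either group gave 0.21 (control) and 0.22 (FF-10101).

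*Il33* (ENSMUSG00000024810), encoding a nuclear alarmin of stromal and endothelial cells, varied most among the treated tumors relative to its mean. Its normalized counts were 178, 79.3 and 106 in the control tumors and 81.0, 252 and 745 in the treated tumors. FF-10101 tumor 3 was the highest and FF-10101 tumor 1 was within the control range. The log2 fold change was 1.11 (SE 0.72, limma adjusted p = 0.466), and leaving out FF-10101 tumor 3 gave 0.32, while leaving out FF-10101 tumor 1 gave 1.91. Mast cells respond to IL-33 through ST2. All 5 listed mast cell markers (*Cpa3*, *Mcpt4*, *Cma1*, *Tpsb2* and *Fcer1a*) were above every control tumor in each treated tumor, against 10.9% of all genes. Their summed normalized counts were 167 to 242 in the control tumors and 474, 515 and 1468 in FF-10101 tumors 1, 2 and 3, so that the tumor highest in *Il33* was also the highest in mast cell transcripts. Of 9 fibroblast and fibrosarcoma markers, 8 had a log2 fold change above 0, against 51.9% of all genes, with a median of 0.66. *Pdgfra*, *Dcn* and *Lum* were above every control in each treated tumor, against 10.9% of all genes. The summed normalized counts of the 9 markers overlapped, at 250815, 121839 and 96226 in the control tumors and 284205, 204233 and 195919 in the treated tumors. All 5 endothelial markers had a log2 fold change above 0, against 51.9% of all genes, with a median of 1.19. Their sums, 1235 to 4315 in the control and 4294 to 5034 in the treated tumors, overlapped. The part of the mast cell, fibroblast and endothelial markers in the values of *Il33*, and of the fibroblast markers in those of *Il1rn* and the genes induced by IL-1, was not tested.

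Both antagonist genes were abundant. *Il1rn* (ENSMUSG00000026981) had normalized counts of 1090, 422 and 389 in the control tumors and 1618, 1958 and 2074 in the treated tumors. Every treated tumor was above the highest control, control tumor 1. The means were 634 ± 395 and 1884 ± 237 (SD, n = 3 each), a 2.97-fold difference of means and a log2 fold change of 1.73 (SE 0.37, unadjusted p = 0.00162, limma adjusted p = 0.229). Without control tumor 1 the log2 fold change was 2.21 (limma adjusted p = 0.000262), and over all 17 alternatives the adjusted p lay between 3.42e-06 and 0.648.

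*Il18bp* (ENSMUSG00000070427), whose product binds and neutralizes IL-18, had normalized counts of 1326, 269 and 183 in the control tumors and 678, 1068 and 1250 in the treated tumors. Control tumor 1 was the highest of all 6 tumors and the other controls were the lowest. With all tumors the log2 fold change was 1.26 (SE 0.66, limma adjusted p = 0.374). It was 2.12 without control tumor 1, where the gene passed the threshold, and 0.69 without control tumor 3. *Numa1* overlaps 80 of the 3026 exonic bases of *Il18bp* on the opposite strand.

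The signaling receptor gene *Il1r1* (ENSMUSG00000026072) was the most even of the 10 genes. It had normalized counts of 426, 501 and 552 in the control tumors and 603, 648 and 635 in the treated tumors. The groups did not overlap, although the difference of means was small, from 493 ± 63.8 to 628 ± 23.4 (SD, n = 3 each) and 1.27-fold. The log2 fold change was 0.36 (SE 0.15, limma adjusted p = 0.308), and leaving out 1 tumor at a time gave 0.26 to 0.44.

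*Il1r2* (ENSMUSG00000026073), encoding a decoy that binds IL-1 without signaling and is typical of neutrophils and some macrophages, was uneven. Its normalized counts were 272, 47.8 and 73.2 in the control tumors and 200, 219 and 346 in the treated tumors. Control tumor 1 lay among the treated tumors, well above the other controls. The log2 fold change was 1.32 (SE 0.59, limma adjusted p = 0.317), and 2.05 without control tumor 1, where the gene passed the threshold. It was 0.80 without control tumor 2.

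Of the inflammasome genes, *Casp1* (ENSMUSG00000025888), encoding caspase-1, had normalized counts of 439, 161 and 180 in the control tumors and 318, 341 and 429 in the treated tumors. Control tumor 1 was again above all treated tumors, narrowly above FF-10101 tumor 3. The log2 fold change was 0.62 (SE 0.37, limma adjusted p = 0.427) and 1.08 without control tumor 1, where the gene passed the threshold. It was 0.35 without control tumor 2. The sensor gene *Nlrp3* (ENSMUSG00000032691) had 232, 156 and 112 normalized counts in the control tumors and 173, 199 and 148 in the treated tumors. All treated tumors were within the control range. Its log2 fold change of 0.10 (SE 0.29, limma adjusted p = 0.874) was the smallest of the 10 and turned to −0.15 without control tumor 3.

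**Figure D2:**
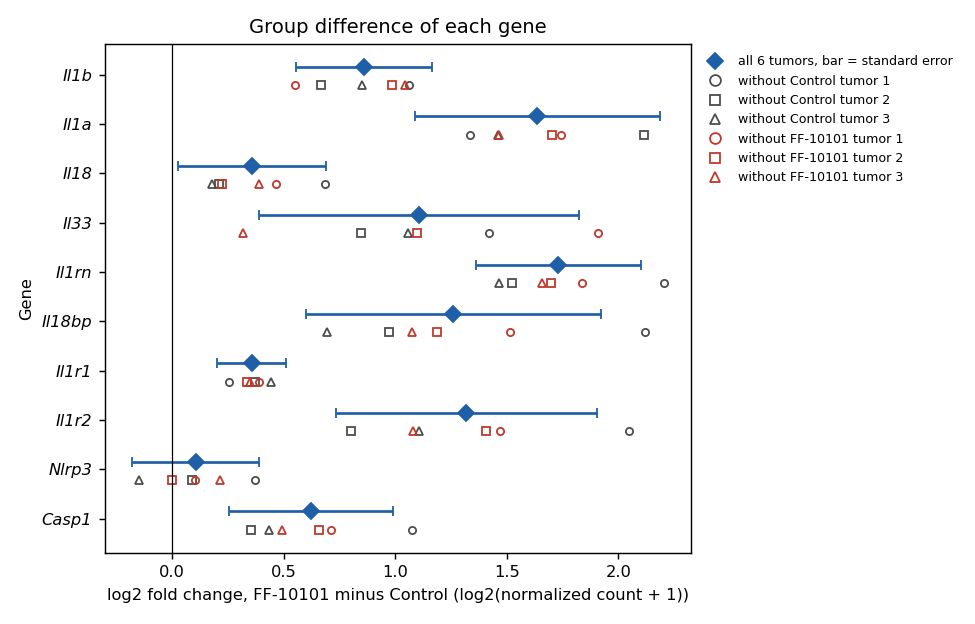
Log2 fold change (FF-10101 minus control) of each gene with all 6 tumors (diamonds, bars are standard errors) and with 1 tumor left out in turn (open symbols). *Il1rn* has a value of 1.73 and *Il1a* of 1.64, and leaving out control tumor 1 moves *Il18bp*, *Il1r2*, *Il1rn* and *Casp1* to their highest values.

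Across genes, levels were compared per kilobase of the median protein-coding transcript. This length was 725 bases for *Il33*, 760 for *Il1r2* and 781 for *Il18*, against 5325.5 for *Il1r1*. Which transcripts the tumors made was not measured, so the order between genes depends on these lengths, and short ones raise the level. In the control tumors *Il1rn*, *Il1b* and *Il18bp* led with 467 ± 291, 424 ± 116 and 408 ± 438 normalized counts per kilobase (SD, n = 3 each) and did not differ beyond their spread. *Casp1*, *Il1r2* and *Il33* followed at 174 ± 104, 173 ± 162 and 167 ± 70.2, and *Il1r1* and *Il18* at 92.6 ± 12.0 and 90.6 ± 38.9, again without a difference beyond the spread within either set of neighbors. *Nlrp3* had 42.4 ± 15.4 and *Il1a* had 4.27 ± 2.99, the lowest level. Control tumor 1 set part of this order. Without it the control means per kilobase were 363 for *Il1b*, 299 for *Il1rn*, 156 for *Il18bp*, 128 for *Il33*, 114 for *Casp1*, 98.9 for *Il1r1*, 79.6 for *Il1r2* and 68.2 for *Il18*, so that *Il18bp* was nearer to *Il33* and *Casp1* than to *Il1b*. *Nlrp3* and *Il1a* remained the lowest, at 34.1 and 5.26. In the treated tumors *Il1rn* was at 1388 ± 174 per kilobase, above the highest treated value of *Il1b*, 1158 in FF-10101 tumor 1, and above the mean of *Il1b*, 790 ± 319. *Il18bp* was at 688 ± 201, *Il33* at 495 ± 475, *Il1r2* at 336 ± 104 and *Casp1* at 242 ± 39.3. *Il1r1*, *Il18*, *Nlrp3* and *Il1a* were the lowest in the treated tumors, at 118 ± 4.39, 111 ± 19.9, 44.0 ± 6.499 and 12.9 ± 2.92.

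Within a tumor, each antagonist or decoy was set against its partner as a log2 ratio of normalized counts, in which the scaling of the tumor largely cancels. The ratio of *Il1rn* to *Il1b* was 0.55, −0.026 and −0.51 in the control tumors and 0.044, 1.19 and 1.39 in the treated tumors. FF-10101 tumors 2 and 3 were above every control, and FF-10101 tumor 1, the tumor highest in *Il1b*, was not. The difference was 0.87, with SDs of 0.53 in the control and 0.73 in the treated tumors, and the groups overlapped. An exact two-sided permutation test gave p = 0.2. As 0.1 is the smallest p that 3 tumors against 3 allow, this test cannot decide whether a ratio differed between groups. The ratio of *Il18bp* to *Il18* was 3.64, 2.29 and 1.79 against 3.18, 3.35 and 3.90, a difference of 0.90 (exact permutation test, p = 0.3). The ratio of *Il1r2* to *Il1r1* was −0.64, −3.36 and −2.90 against −1.59, −1.56 and −0.87, a difference of 0.96 (exact permutation test, p = 0.4). In both of these ratios control tumor 1 was in or above the treated range. The difference in the ratio of *Il18bp* to *Il18* was 1.43 when control tumor 1 was left out and was 0.51 when control tumor 3 was. That in the ratio of *Il1r2* to *Il1r1* was 1.79 when control tumor 1 was left out and 0.43 when control tumor 2 was. That in the ratio of *Il1rn* to *Il1b* lay between 0.61 and 1.29 when single tumors were left out.

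**Figure D3:**
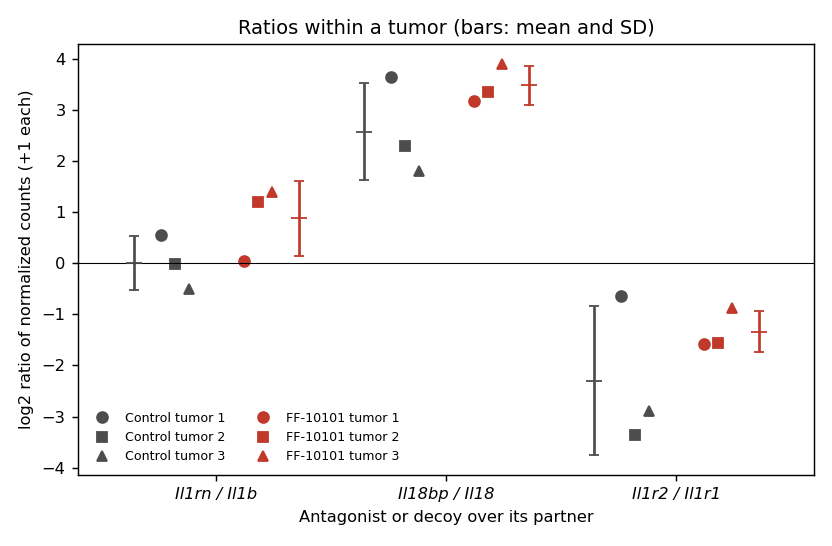
Log2 ratio of normalized counts (1 added to each) of *Il1rn* to *Il1b*, *Il18bp* to *Il18* and *Il1r2* to *Il1r1* in each tumor, with the group mean and SD as bars. All 3 ratios have higher means in the treated tumors, and all 3 overlap between groups.

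The remaining genes of the pathway were taken from a list of 62, of which 54 were abundant enough to test and 0 passed an adjusted p of 0.05 in limma. An unadjusted p under 0.05 was reached by 18 genes in the direction of a higher level in the treated tumors and by 3 in the opposite direction, against 8.77% and 7.49% of all genes tested. The median log2 fold change of the 54 was 0.28, or 0.46 without control tumor 1. In each treated tumor 14 were above and 4 below every control tumor, against 10.9% and 9.37% of all genes. Without control tumor 1, 20 passed as higher and 2, *Gsdme* and *Irak1*, as lower, against 12% and 9.88% of all genes.

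Among other ligands, *Il36g*, encoding IL-36γ, had 16, 5 and 6 reads in the control tumors and 77, 37 and 45 reads in the treated tumors. The treated tumors were all above the controls, with a log2 fold change of 2.25 (SE 0.51, limma adjusted p = 0.229), or 2.73 with control tumor 1 left out (limma adjusted p = 0.00452). *Il36b* and *Il1f10* had 0 reads in every tumor. Keratinocytes express IL-36 and IL-1 family ligands, and the summed normalized count of 8 keratinocyte markers was 43.5 to 216 in the control tumors and 1008, 51.0 and 34.7 in FF-10101 tumors 1, 2 and 3. FF-10101 tumor 1, the highest in these markers, also had the most *Il36g* reads and normalized counts, but the lowest *Il1a* of the treated tumors in normalized counts, 21.4 against 22.8 and 32.0. In FF-10101 tumors 2 and 3, *Krt5*, *Krt14*, *Krt1* and *Dsg3* had 0 reads, while *Krt10* had 25 and 22 and *Trp63* had 16 and 14. The part of these markers in the values of *Il36g* and *Il1a* was not tested.

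Of 6 further receptor genes, *Il1rl1* and *Il18rap* were above every control tumor in each treated tumor, against 10.9% of all genes. *Il1rl1*, encoding the IL-33 receptor ST2, was by far the most abundant of them, with 5087, 1454 and 1581 normalized counts in the control tumors and 5680, 5552 and 7365 in the treated tumors. Control tumor 1 was close to the treated tumors, and the log2 fold change was 1.44 (SE 0.44, limma adjusted p = 0.233), and 2.02 without control tumor 1 (limma adjusted p = 0.000464). *Il18rap*, encoding the accessory chain of the IL-18 receptor, had 391, 206 and 172 against 423, 572 and 613 (log2 fold change 1.14, limma adjusted p = 0.229). With that tumor left out it was 1.49 (limma adjusted p = 0.00354). In that fit 12% of all genes passed as higher. The ligand-binding chain gene *Il18r1* had a log2 fold change of 1.07 with overlapping groups, and *Il1rap*, encoding the accessory chain shared by IL-1 and IL-33, had 0.087 (limma adjusted p = 0.305 and 0.871). With control tumor 1 left out they were 1.32 and −0.046, and neither passed the threshold.

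The other inflammasome and pyroptosis genes had no common direction, with 9 of 20 tested above 0. Their median log2 fold change was −0.095, and it turned to 0.12 with control tumor 1 left out. *Pycard*, encoding the adaptor ASC that links sensors such as NLRP3 to caspase-1, was below every control tumor in each treated tumor. Its normalized counts were 1003, 600 and 719 in the control tumors and 423, 489 and 548 in the treated tumors, a log2 fold change of −0.64 (SE 0.22, limma adjusted p = 0.245) that was −0.44 without control tumor 1 (limma adjusted p = 0.095). *Gsdme*, *Card9* and *Ninj1* were also below every control, at log2 fold changes of −0.80, −0.69 and −0.40 (limma adjusted p = 0.229, 0.274 and 0.317). *Casp4*, encoding the caspase of the noncanonical inflammasome, was above every control at 0.98 (limma adjusted p = 0.229), and *Gsdmd*, encoding the pore-forming substrate of both caspases, had 0.073 (SE 0.18, limma adjusted p = 0.859). With control tumor 1 left out, *Casp4* at 1.31 and *Mefv* at 1.17 passed as higher and *Gsdme* at −0.95 as lower (limma adjusted p = 0.00286, 0.0111 and 0.0235). Of all genes, 12% passed as higher and 9.88% as lower in that fit. Macrophage markers had the same direction as *Pycard*. The summed normalized count of 9 such markers was 38569 to 66015 in the control and 24135 to 34089 in the treated tumors. Of the 9, 5 were below every control, against 9.37% of all genes. The part of the macrophage markers in the *Pycard* values was not tested.

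The 11 signaling genes had a median log2 fold change of 0.14, or 0.35 without control tumor 1. *Myd88*, the adaptor gene of the receptor complex, had 1118, 618 and 680 normalized counts in the control and 971, 939 and 947 in the treated tumors, a log2 fold change of 0.29 (limma adjusted p = 0.544). *Irak3*, encoding an inhibitory kinase of the pathway, had the largest value of the 11, 1.04, with overlapping groups (limma adjusted p = 0.291). Without control tumor 1, *Myd88* (0.55), *Irak3* (1.52) and *Tollip* (0.48) passed as higher and *Irak1* (−0.49) as lower (limma adjusted p = 0.021, 0.00753, 0.0409 and 0.0287). The shares of all genes in that fit were 12% and 9.88%.

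Genes that IL-1 is known to induce were mostly higher in the treated tumors. The list was chosen with earlier results of these data known, and the study had reported *Il6*, *Cxcl2* and *Cxcl5* as increased in these tumors. The counts below are therefore a description and not an independent test. Of 16 tested, 15 had a log2 fold change above 0, with a median of 0.71, and 10 had an unadjusted p under 0.05, all higher, against 8.77% of all genes tested. In 8 of the 16 each treated tumor was above every control, against 10.9% of all genes. The latter included the neutrophil chemokine genes *Cxcl1*, *Cxcl2* and *Cxcl5*, with log2 fold changes of 2.16, 2.13 and 2.85, and the acute-phase genes *Lcn2* and *Saa3*, with 1.998 and 1.79 (limma adjusted p = 0.184 to 0.242). With control tumor 1 left out, the median of the 16 was 0.94 and 12 passed as higher, against 12% of all genes. *Saa3* had 1789, 504 and 724 normalized counts in the control tumors and 1821, 3070 and 4836 in the treated tumors, so FF-10101 tumor 1 was barely above control tumor 1. *Cxcl1* had 221, 40.2 and 41.0 against 533, 250 and 253, and FF-10101 tumor 1 was highest, as for *Il1b*. With control tumor 1 left out, the log2 fold changes were 2.96 for *Cxcl1*, 2.37 for *Cxcl2*, 3.76 for *Cxcl5*, 2.50 for *Lcn2* and 2.31 for *Saa3*. *Nfkbia* and *Ptges* had −0.013 and 0.070 with all tumors, and both turned in sign, to 0.16 and −0.14, when that tumor was left out. Many other stimuli induce these genes, and whether IL-1 did so here was not measured.

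**Figure D4:**
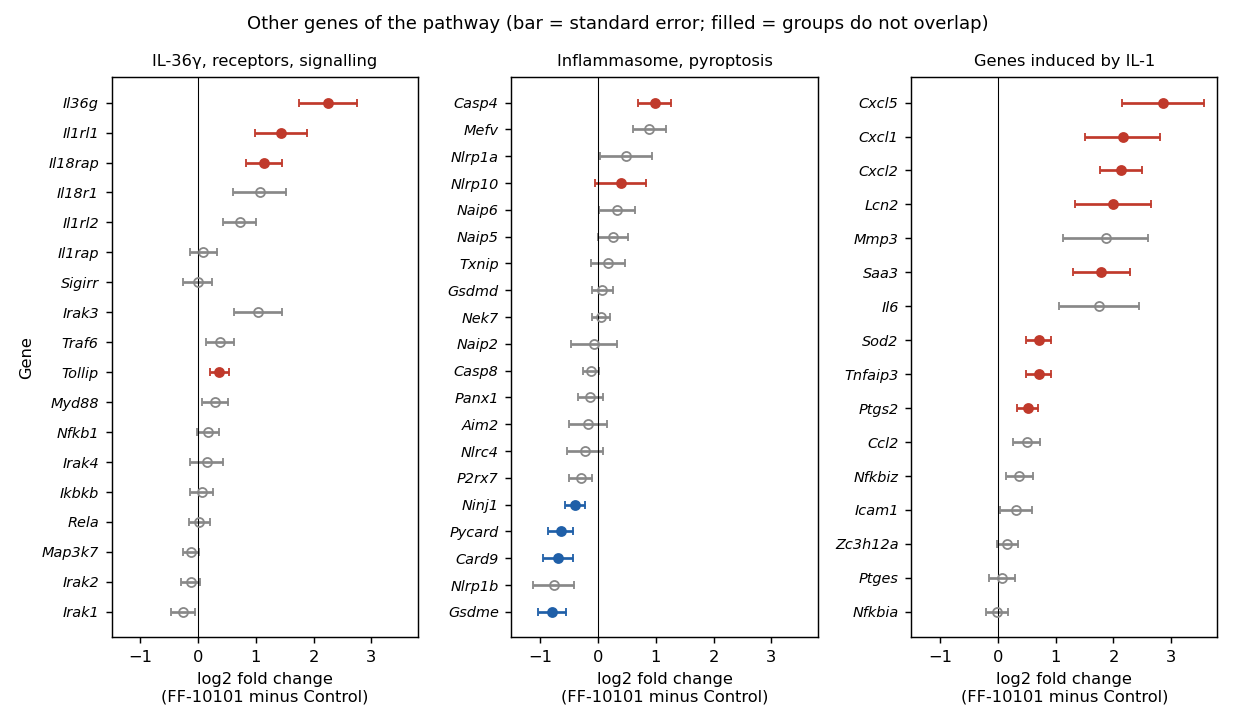
Log2 fold change (FF-10101 minus control, bars are standard errors) of the 54 other pathway genes tested, in 3 panels by role, with filled symbols where the groups do not overlap (red, higher; blue, lower in the treated tumors). The genes induced by IL-1 lie almost all above 0, and the inflammasome genes lie on both sides.

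Neutrophils express *Il1b*, *Il1rn* and *Il1r2*, and 8 of 10 listed markers of these cells were abundant enough to test. Their limma adjusted p was 0.0813 for *Cxcr2* and 0.229 to 0.863 for the others. The summed normalized count of 10 neutrophil markers was 2068 to 2349 in the control tumors and 2913 to 3347 in the treated tumors. Of the 8, 3 (*S100a8*, *S100a9* and *Cxcr2*) were above every control in each treated tumor, against 10.9% of all genes, and the other 5 overlapped. *Mmp9*, the most abundant of the markers, had 800, 1537 and 1369 against 1715, 952 and 780 normalized counts, a log2 fold change of −0.13. The granule gene *Ngp* had 0 reads in every tumor. The part of the neutrophil markers in the values of these genes was not tested. The sums of 4 further lists overlapped between groups. They were 13648 to 26594 in the control and 20231 to 25364 in the treated tumors for monocyte markers, 349 to 593 and 325 to 499.5 for dendritic cell markers, 2098 to 4745 and 2066 to 6990.3 for skeletal muscle markers, and 249.9 to 511 and 263 to 1162 for adipocyte markers.

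For each gene the tumor-to-tumor pattern was compared with that of 11033 other protein-coding genes by Pearson's r of log2 values over the 6 tumors, as a description that includes the difference between groups. Those most like *Il1b* were *Ube2z*, *Gcdh* and *Wwp2* (r = 0.996, 0.995 and 0.993). Those most like *Il1rn* were *Osmr*, *Npnt* and *Fstl1* (r = 0.999, 0.998 and 0.997), of which *Osmr* had 565, 237 and 236 normalized counts in the control tumors and 787, 875 and 985 in the treated tumors. *Casp1* was most like *Ifitm2*, *Irf9* and *Rab3d* (r = 0.997, 0.996 and 0.996) and *Il18bp* most like *Rassf2*, *Icos* and *Id2* (r = 0.999, 0.998 and 0.997). In each of the latter, as in *Il18bp*, control tumor 1 was higher than control tumors 2 and 3. The most similar genes for the rest were *Trip11* for *Il1a* (r = 0.992), *Usp40* for *Il1r1* (0.984), *Sorbs2* for *Il1r2* (0.999), *Syngr2* for *Il18* (0.993), *Limd1* for *Il33* (0.996) and *Faap100* for *Nlrp3* (0.986).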

How the data were processed

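Bulk RNA of 6 tumors, grouped by the treatment and number in their labels, was analysed. Per the submitters' processing notes, the authors used fastp version 0.19.5, Salmon version 1.5.1 (with GENCODE vM27) and DESeq2 version 1.22.1. The deposited values are log2 values, 1 per gene and tumor. These deposited values follow the variance-stabilizing function of that package, and undoing it gave whole reads (within 1e-06) for 100% of 325854 values. The sources used here do not name the transformation. Planned as normalized counts, the table was first converted back to reads over a size factor for each tumor.

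The test was limma version 3.58.1 (R version 4.3.3) with a mean-variance trend. It used log2(normalized count + 1), a scale that understates changes of low genes, and 13963 genes whose mean reached 10, as all 10 genes did, with Benjamini-Hochberg adjustment. Single ratios were compared by an exact permutation test. Symbols, transcript lengths and overlaps came from GENCODE vM21 (51484 identifiers matched), names of IL-36 genes from RefSeq synonyms, and start regions from RefSeq (all 10 genes matched). The labels do not say whether counting used strand, so reads of *Il1b*, *Il1a* and *Il18bp* cannot be told apart from those of *Il1bos*, *Gm14023* and *Numa1* where they overlap. At 90% identity over 50 bases, BLAST (version 2.17.0) matched transcripts of the 10 genes to *Numa1* (*Il18bp*) and *Gm14023* (*Il1a*), and to no further gene.

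The 10 genes, gene lists and tests were chosen with earlier results of these data known. Of the pathway list, genes were named when the groups did not overlap and the absolute log2 fold change was above 1, and *Pycard*, *Gsdmd*, *Il1rap*, *Il1rl1*, *Il18r1* and *Myd88* in any case. Others are named to complete a count of 5 or fewer, or as extremes, marker genes, values near 0 or genes that passed without control tumor 1, after their values were seen. Marker lists of monocytes, dendritic cells, skeletal muscle and adipocytes were also summed. Alternatives were 2 pseudocounts, no or a higher minimum, 2 scalings, no trend, array weights, a replicate block, limma-voom, the deposited log2 values and each tumor left out. The labels name no batch and do not say that each tumor came from its own mouse, so p-values measure the spread between these tumors. The steps were tested on simulated data.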

Additional observations from a re-analysis of the deposited data

How the results depend on the processing

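The count of 0 of the 10 genes past an adjusted p of 0.05 held in 15 of the 17 alternatives, limma-voom on the recovered reads among them. It was 8 with limma's array weights, which weighted control tumor 2 by 5.39 and FF-10101 tumor 2 by 8.08 and every other tumor by 0.139 to 0.859, so that this fit rested mostly on 1 tumor of each group, and 0 to 5 when single tumors were left out, 5 without control tumor 1. For the other pathway genes it was 39 with array weights and 0 to 22 when single tumors were left out. Of all genes, 6 passed; 17 did with no minimum, 3 with a mean of at least 50, 8365 with array weights, 1 with the replicate block and 1 to 3051 when single tumors were left out. With array weights the log2 fold changes of the genes that passed were 0.97 for *Il1b*, 2.19 for *Il1rn*, 0.36 for *Il1r1*, 2.12 for *Il1r2*, 0.86 for *Il18*, 1.97 for *Il18bp*, 1.67 for *Il33* and 1.06 for *Casp1*. With each tumor left out in turn, they ran from 0.55 to 1.06 for *Il1b*, 1.46 to 2.21 for *Il1rn*, 0.80 to 2.05 for *Il1r2*, 0.69 to 2.12 for *Il18bp*, 0.35 to 1.08 for *Casp1* and −0.15 to 0.37 for *Nlrp3*, which was −0.0005 without FF-10101 tumor 2. No other gene of the 10 changed sign under any alternative. Both scalings kept the median of all genes between −0.017 and 0.076. Same-numbered tumors did not deviate together (r = −0.29, −0.040 and −0.28 across genes), while control tumor 3 and FF-10101 tumor 1 had r = 0.31. Deviations from a mean of 3 tumors constrain each other, so whether same-numbered tumors were handled together cannot be told from these values. With the replicate block 0 of the 10 genes passed. The cause of the changes was not tested. Low read numbers limit *Il1a*, which the minimum mean of 50 left out.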
